A study of Mus musculus with 16 samples.

Results

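A set of 9 chemokine and chemokine receptor genes of myeloid cells was examined, the ligand genes *Ccl3*, *Ccl4*, *Ccl6* and *Ccl9* and the receptor genes *Ccr1*, *Ccr2*, *Cx3cr1*, *Cxcr2* and *Cxcr4*. They were chosen by gene symbol with earlier results of these data known, and all 9 were found among the 54347 genes counted. RNA was sequenced from 2 bone marrow populations of mice that lack the upstream regulatory element (URE) of *Spi1*, the gene of the transcription factor PU.1, and of wild-type (WT) littermates. LSKs are lineage-negative cells with Sca-1 and c-Kit on their surface and hold the stem cells and multipotent progenitors. GMPs are lineage-negative c-Kit+ cells without Sca-1 that carry Cd16/32, and they are the progenitors of granulocytes and monocytes. The 4 groups were URE LSKs, WT LSKs, URE GMPs and WT GMPs, with 4 mice each and 16 libraries in all. All mice were C57BL/6 animals of 8 to 12 weeks, and the labels do not say whether LSKs and GMPs of the same replicate number came from the same mouse. Cells were enriched with c-Kit beads before sorting, and the lineage antibodies included Gr1, so that mature granulocytes were depleted.

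Chemokines are small secreted proteins that guide the movement of leukocytes, and their receptors are G protein-coupled receptors of the cell surface. *Ccl3* and *Ccl4* encode the macrophage inflammatory proteins MIP-1 alpha and MIP-1 beta, and the former is known to restrain the cycling of stem and progenitor cells. *Ccl6* and *Ccl9* encode rodent CC chemokines made by myeloid cells that bind CCR1, which is also a receptor of CCL3. CCR2 lets monocytes leave the bone marrow, CX3CR1 marks monocytes, macrophages and dendritic cell precursors, CXCR2 drives the exit of neutrophils, and CXCR4 holds stem cells and neutrophils in the marrow through CXCL12. PU.1 is a factor of the ETS family that binds purine-rich DNA and is required for the monocyte lineage.

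Total counts per library lay between 20028302 and 29128858. *Spi1* was at 1.13 to 4.44 CPM (normalised counts, scaled to the effective library size) in URE LSKs against 69.5 to 166 CPM in WT LSKs. In GMPs it was at 15.6 to 28.6 CPM in URE against 84.8 to 181 CPM in WT, so that in both cell types every URE library lay below every WT library. All 7 genes listed as marks of LSKs had a negative log2 fold change from WT LSKs to WT GMPs, and of 7 marks of GMPs, 6 had a positive one. *Ppbp*, a platelet gene, reached 355 CPM in URE LSK replicate 3 and at most 0.133 CPM in the other URE LSKs, and *Vwf* reached 63.3 CPM there against at most 13.3 CPM. *F13a1*, a monocyte gene, reached 453 CPM in URE GMP replicate 2 against at most 47.5 CPM in the other URE GMPs. *Kit* was higher in replicates 1 and 4 than in replicates 2 and 3 in all 4 groups, for example 1414 to 1860 CPM against 743 to 886 CPM in WT LSKs. The Y-linked gene *Ddx3y* was at 83.1 to 130 CPM in WT replicates 1 to 3 and URE replicate 1 and at 0 in the other mice, so that the sexes were uneven between the genotypes except in replicates 1 and 4. Replicates 1 and 4 thus differed from replicates 2 and 3 in both *Kit* and sex balance, which cannot be told apart. Values without these libraries or within these replicates are given where a result rests on them.

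The first question was which of the genes differ with the URE deletion in each cell type. As the set was chosen with earlier results known, its counts beside the shares of all genes are descriptions. In LSKs, *Ccl3*, *Ccl9* and *Cx3cr1* fell in URE mice. Of the 9 genes, 8 had enough counts for the test there and 3 were called lower, beside 3.76% of all 15154 genes tested. A call needed a fold change beyond 1.5 with a Benjamini-Hochberg adjusted p below 0.05 in the quasi-likelihood test of edgeR. All 8 had a negative fold change, with a median of -1.16 on the log2 scale against 0.00 over all genes tested. In GMPs all 9 were tested and 2 fell, *Ccl3* and *Ccr2*, beside 3.63% of 13829 genes called lower. Their median log2 fold change was -0.73 against 0.01 over all genes. None was called higher in either cell type, while 2.38% of all genes in LSKs and 4.67% in GMPs were. At an unadjusted p under 0.05 edgeR gave 6 lower and 0 higher in LSKs, beside 8.72% and 6.63% of all genes, and 5 lower and 0 higher in GMPs, beside 9.66% and 10.6%. DESeq2 called 4 lower (*Ccr1* in addition) and 0 higher in LSKs, beside 4.67% and 3.32% of all genes, and 2 lower and 0 higher in GMPs, beside 883 (4.77%) and 1112 of 18519 genes. A fit with a term for the replicate number, a block that compares libraries of the same number, gave other counts: 4 genes were called lower in LSKs and 5 in GMPs, beside 5.62% and 6.82% of all genes. Groups that did not overlap, with URE below WT, were found for 5 of the 9 genes in LSKs (*Ccl3*, *Ccl9*, *Cx3cr1*, *Cxcr2* and the untested *Ccr1*) and for 6.90% of all genes tested. In GMPs they were found for 2 (*Ccl3* and *Ccr2*) and for 6.98% of all genes. The plot of fold changes by genotype sets the 2 cell types side by side.

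**Figure D1:**
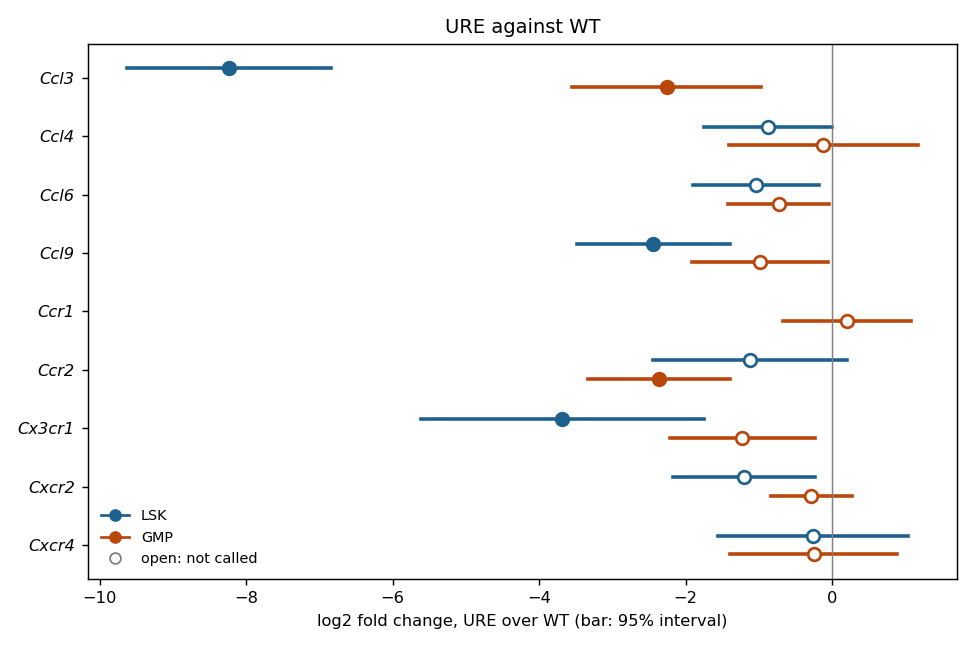
Log2 fold changes of URE over WT (x axis) for each gene (y axis) in LSKs (blue) and GMPs (orange), from edgeR. Bars are 95% intervals and open circles were not called. *Ccl3* in LSKs lies farthest to the left at -8.24, and *Ccr1* in LSKs has no point because its counts were too low for the test.

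The ligand genes lie together. *Ccl9* (chr11:83572919-83578636), *Ccl6* (chr11:83587882-83593087) and *Ccl3* (chr11:83647844-83649355) are on the minus strand and *Ccl4* (chr11:83662584-83664683) is on the plus strand in GRCm38, within 91.8 kb. *Ccr1* (chr9:123962124-123968692, minus strand) and *Ccr2* (chr9:124101950-124113557, plus strand) are separated by 133.3 kb. *Cx3cr1* (chr9:119901616-120069879, minus strand) lies elsewhere on that chromosome, and *Cxcr2* (chr1:74153989-74161246, plus strand) and *Cxcr4* (chr1:128588199-128592293, minus strand) lie on chromosome 1. The counts are estimates for annotated transcripts aggregated to genes, and the annotation release behind them is not given in the sources used here. Of the 31-base words of their exons, 0% (*Ccl3* and *Ccl4*) to 12.1% (*Cxcr2*) occur in another gene too, so that few reads could be split. *Cx3cr1* shares 78 exonic bases with *Gm33858* on the other strand, and the libraries do not mark strand.

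Promoter sequences of the 4 genes called in a genotype comparison, and of *Ccr1* for comparison, are shown because the URE mice have less *Spi1*, the gene of PU.1. They are 300-base windows around the RefSeq start sites on GRCm38.p6, 5′ to 3′ on the strand of the gene, and capitals mark GAGGAA, the core of many PU.1 sites, read on either strand (TTCCTC on the other).
*Ccl3*, chr11:83649329-83649628, minus strand: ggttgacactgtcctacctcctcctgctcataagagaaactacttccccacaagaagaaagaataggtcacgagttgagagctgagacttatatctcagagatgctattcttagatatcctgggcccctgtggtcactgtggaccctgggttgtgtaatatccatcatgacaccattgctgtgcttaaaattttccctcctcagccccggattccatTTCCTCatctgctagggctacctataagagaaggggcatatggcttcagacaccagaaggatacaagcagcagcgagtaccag
*Ccl9*, chr11:83578587-83578886, minus strand: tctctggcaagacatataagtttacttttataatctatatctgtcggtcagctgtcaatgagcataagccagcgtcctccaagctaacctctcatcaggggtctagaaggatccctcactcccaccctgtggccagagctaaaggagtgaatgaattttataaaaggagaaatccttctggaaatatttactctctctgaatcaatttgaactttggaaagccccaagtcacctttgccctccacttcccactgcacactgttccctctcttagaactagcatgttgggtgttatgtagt
*Cx3cr1*, chr9:120068247-120068546, minus strand: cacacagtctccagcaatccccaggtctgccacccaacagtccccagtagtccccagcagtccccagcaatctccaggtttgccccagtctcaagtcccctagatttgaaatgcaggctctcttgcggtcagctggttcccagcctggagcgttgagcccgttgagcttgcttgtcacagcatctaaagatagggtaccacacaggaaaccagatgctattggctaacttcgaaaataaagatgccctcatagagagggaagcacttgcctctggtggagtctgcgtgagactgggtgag
*Ccr2*, chr9:124101933-124102232, plus strand: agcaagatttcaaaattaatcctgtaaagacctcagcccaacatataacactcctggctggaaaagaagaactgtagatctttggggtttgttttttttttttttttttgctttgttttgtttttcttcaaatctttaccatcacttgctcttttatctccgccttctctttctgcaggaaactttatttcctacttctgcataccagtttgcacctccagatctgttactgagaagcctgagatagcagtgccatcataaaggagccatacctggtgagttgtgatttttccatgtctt
*Ccr1*, chr9:123968643-123968942, minus strand: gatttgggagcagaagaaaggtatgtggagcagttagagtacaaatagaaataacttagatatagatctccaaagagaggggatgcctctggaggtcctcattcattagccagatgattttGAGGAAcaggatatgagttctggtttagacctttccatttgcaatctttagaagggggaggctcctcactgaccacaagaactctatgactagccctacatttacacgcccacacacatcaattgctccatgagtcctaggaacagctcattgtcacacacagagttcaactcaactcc

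RefSeq promoters were given for 8 of the 9 genes. GAGGAA was found in 3 of the 8, in *Ccl3* from position -33, in *Ccr1* from -129 and in *Cxcr2* from -81 and from 7, counted from the start site. It was found in 28.3% of all 32851 promoter windows of that length. Of the 4 called genes with a sequence above, only the *Ccl3* window held it. The RUNX letters TGTGGT were found in 3 of the 8 windows (*Ccl3*, *Ccr1* and *Cx3cr1*) and in 16.8% of all windows, and the C/EBP letters TTGCNNAA in 0 of the 8 and in 10.8% of all. No match overlapped a match of another motif. These matches are counts of letters and not measured sites.

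*Ccl3* changed most. In WT LSKs it was at 9.10, 18.6, 23.2 and 10.9 CPM in replicates 1 to 4. In URE LSKs it was at 0.0780, 0.0663, 0 and 0.0418 CPM, which are 2, 2, 0 and 1 counts. Every WT library lay above every URE library, and the lowest WT library held 271 counts. Over the groups, 5 counts stood against 1704, a ratio of 0.00316 after scaling to library size with an exact 95% interval of 0.00102 to 0.00739 for counting error only. The fitted log2 fold change was -8.24 (SE 0.62, adjusted p = 0.000128 by edgeR), and its size depends on the prior count because the URE group is near 0. In WT GMPs *Ccl3* was at 0.693, 0.997, 1.37 and 1.71 CPM, and in URE GMPs at 0.145, 0.366, 0.410 and 0.0563 CPM. These groups did not overlap either, and *Ccl3* fell by 2.26 on the log2 scale (SE 0.57, adjusted p = 0.0417 by edgeR), on 19 counts against 101. The call in GMPs was lost in 6 of 8 fits that left out a library, those without URE replicate 1, 2 or 4 or WT replicate 2, 3 or 4, with adjusted p between 0.0416 and 0.126 over the 8. It held within replicates 1 and 4, where the sexes were even and *Kit* was higher (-3.48, adjusted p = 0.0445 by edgeR). It was lost within replicates 2 and 3 (-1.62, adjusted p = 0.451 by edgeR). With the level of Y-linked genes as a covariate the log2 fold change was -2.63 and not called (adjusted p = 0.0653 by edgeR). The order of the groups was WT LSKs (15.5 ± 6.61 CPM, SD, n = 4), WT GMPs (1.19 ± 0.443), URE GMPs (0.244 ± 0.171) and URE LSKs (0.0465 ± 0.0345), and the last 2 overlapped (exact two-sided permutation p = 0.0857).

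*Ccl4*, whose gene model lies 13.2 kb from that of *Ccl3*, was not called in either cell type. It was at 10.8, 19.0, 23.9 and 13.1 CPM in WT LSKs and at 7.53, 12.9, 12.3 and 4.60 CPM in URE LSKs. The groups overlapped, although each URE library was below the WT library of the same number. The log2 fold change was -0.87 (95% interval -1.74 to -0.01, adjusted p = 0.322 by edgeR). With the replicate number as a block it was -0.91 and called (adjusted p = 0.0413 by edgeR). In GMPs *Ccl4* was at 0.346 to 1.66 CPM in WT and 0.482 to 1.59 CPM in URE, with a log2 fold change of -0.12 (95% interval -1.41 to 1.17) whose sign turned in 3 of 8 fits that left out a library. The order was WT LSKs (16.7 ± 5.91 CPM, SD, n = 4), URE LSKs (9.33 ± 3.96), WT GMPs (0.926 ± 0.575) and URE GMPs (0.854 ± 0.506), with overlap between the first pair and between the last pair. In WT LSKs *Ccl4* held 1842 counts and *Ccl3* 1704, and in URE LSKs *Ccl4* held 984 and *Ccl3* 5.

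**Figure D2:**
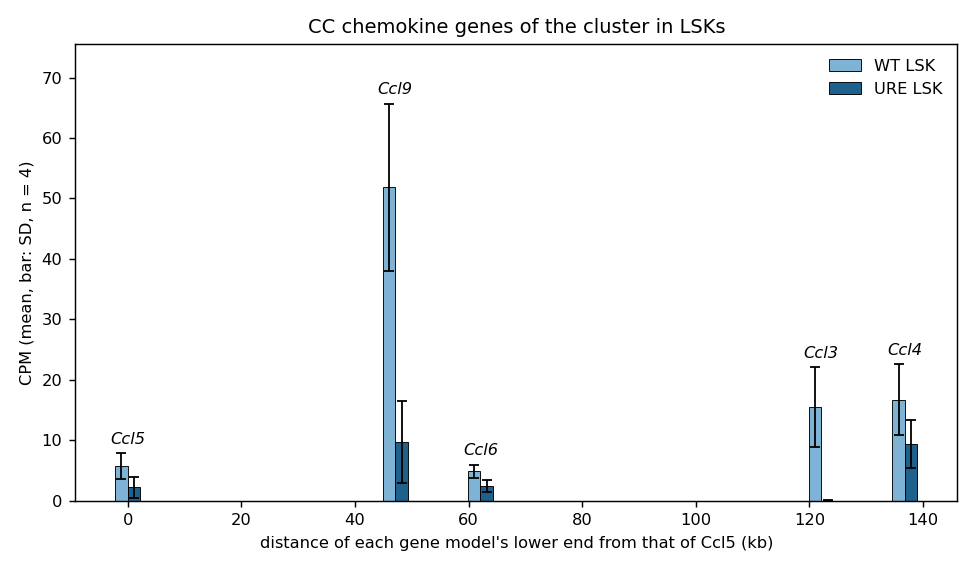
Mean CPM in WT (light) and URE (dark) LSKs of the CC chemokine genes *Ccl5*, *Ccl9*, *Ccl6*, *Ccl3* and *Ccl4* at their distance along the chromosome in kb, with SD bars, n = 4 mice each. *Ccl3* has almost no bar in URE LSKs, while *Ccl4* beside it stands at 9.33 CPM.

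*Ccl9* was the ligand gene with the highest level per kb in GMPs of both genotypes. In WT LSKs it was at 32.5, 60.4, 51.2 and 63.2 CPM and in URE LSKs at 8.77, 19.3, 6.91 and 3.81 CPM. The groups did not overlap, and *Ccl9* fell by 2.44 on the log2 scale (SE 0.47, adjusted p = 0.0139 by edgeR). The call held in all 8 fits that left out a library, with log2 fold changes between -3.01 and -2.17. In WT GMPs it was at 124, 222, 220.1 and 143 CPM, and in URE GMPs at 46.6, 183, 72.7 and 62.6 CPM. URE replicate 2, the library with high *F13a1*, lay within the range of the WT libraries and the other 3 below it. The log2 fold change in GMPs was -0.99 (95% interval -1.91 to -0.06, adjusted p = 0.212 by edgeR). It was -1.13 and called with the replicate block (adjusted p = 0.00897 by edgeR), -1.57 and called without URE GMP replicate 2 (adjusted p = 0.0156 by edgeR), and -1.31 and called within replicates 1 and 4 (adjusted p = 0.0160 by edgeR). The order was WT GMPs (177 ± 51.2 CPM, SD, n = 4), URE GMPs (91.2 ± 62.0), WT LSKs (51.8 ± 13.9) and URE LSKs (9.70 ± 6.73), and only the last step had no overlap.

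*Ccl6*, the neighbour of *Ccl9*, was at 3.24 to 5.87 CPM in WT LSKs and at 1.55 to 3.48 CPM in URE LSKs. Only the highest URE library reached into the WT range, and the log2 fold change was -1.03 (95% interval -1.89 to -0.17, adjusted p = 0.203 by edgeR). In GMPs it was at 9.31 to 17.0 CPM in WT and 5.26 to 11.2 CPM in URE, with a log2 fold change of -0.73 (95% interval -1.42 to -0.04, adjusted p = 0.218 by edgeR). In both cell types all 4 URE libraries were below the WT library of the same number, and with the replicate block the GMP change was called at -0.75 (adjusted p = 0.0304 by edgeR). The order was WT GMPs (13.3 ± 3.43 CPM, SD, n = 4), URE GMPs (8.11 ± 2.71), WT LSKs (4.87 ± 1.13) and URE LSKs (2.42 ± 1.01), with overlap at each step. *Ccl5*, on the far side of *Ccl9*, had a log2 fold change of -1.39 in LSKs (adjusted p = 0.346 by edgeR) and -1.27 in GMPs (adjusted p = 0.188 by edgeR).

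Among the receptor genes of the set, *Ccr2* differed most in GMPs. It was at 116, 154, 182 and 133 CPM in WT GMPs and at 14.5, 59.7, 24.2 and 17.6 CPM in URE GMPs. The groups did not overlap, the highest URE library was again replicate 2, and *Ccr2* fell by 2.36 on the log2 scale (SE 0.43, adjusted p = 0.00934 by edgeR). Without URE GMP replicate 2 the log2 fold change was -2.98 (adjusted p = 0.000847 by edgeR), and the call held in all 8 fits that left out a library but was lost within replicates 2 and 3 (-2.05, adjusted p = 0.105 by edgeR). In LSKs *Ccr2* was at 3.72, 8.26, 6.37 and 5.36 CPM in WT and at 0.936, 2.19, 6.57 and 1.38 CPM in URE. URE replicate 3, the library with high *Ppbp*, lay within the WT range and the other 3 below it. The log2 fold change was -1.12 (95% interval -2.45 to 0.20, adjusted p = 0.446 by edgeR) with all libraries, and -2.00 and called without URE LSK replicate 3 (adjusted p = 0.0282 by edgeR). The order was WT GMPs (146 ± 28.3 CPM, SD, n = 4), URE GMPs (29.0 ± 20.9), WT LSKs (5.92 ± 1.90) and URE LSKs (2.77 ± 2.59), and only the last 2 overlapped.

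*Ccr1*, the receptor of CCL3, CCL6 and CCL9, was low in LSKs. In WT LSKs it had 9, 36, 25 and 25 counts and in URE LSKs 6, 4, 0 and 0 counts, and the groups did not overlap. These counts were too low for the test of the LSK libraries alone. The ratio of URE to WT was 0.113 with an exact 95% interval of 0.0527 to 0.218 for counting error only, and with no filter on low counts the log2 fold change was -3.16 (SE 0.98, adjusted p = 0.129 by edgeR). Fitted with all 16 libraries it was -3.13 and called (adjusted p = 0.0160 by edgeR), and DESeq2 on the LSK libraries alone also called it lower (-3.20, adjusted p = 0.0101 by DESeq2). The exact two-sided permutation p was 0.0286, the smallest that 4 against 4 can give. In GMPs *Ccr1* was at 3.20, 6.56, 5.28 and 2.85 CPM in WT and at 4.24, 8.25, 3.02 and 5.46 CPM in URE. The groups overlapped over most of their range, and the log2 fold change was 0.21 (95% interval -0.67 to 1.09, adjusted p = 0.845 by edgeR), or -0.11 without URE GMP replicate 2. The order was URE GMPs (5.25 ± 2.24 CPM, SD, n = 4), WT GMPs (4.48 ± 1.76), WT LSKs (0.870 ± 0.401) and URE LSKs (0.0916 ± 0.114), and only the first 2 overlapped.

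*Cx3cr1*, the fractalkine receptor, was at 4.29, 3.15, 1.17 and 3.91 CPM in WT LSKs. In URE LSKs it was at 0.0780, 0.464, 0 and 0.418 CPM, which are 2, 14, 0 and 10 counts. The groups did not overlap, and *Cx3cr1* fell by 3.69 on the log2 scale (SE 0.86, adjusted p = 0.0350 by edgeR). The call was lost in 5 of 8 fits that left out a library, those without URE replicate 1 or 4 or WT replicate 1, 2 or 4, with adjusted p between 0.0266 and 0.0940 over the 8. Within replicates 1 and 4, where the sexes were even and *Kit* was higher, the log2 fold change was -4.06 (adjusted p = 0.0276 by edgeR). The call was lost within replicates 2 and 3 (-3.16, adjusted p = 0.368 by edgeR) and with the level of Y-linked genes as a covariate (-4.26, adjusted p = 0.0721 by edgeR). In GMPs it was at 46.9, 25.1, 14.0 and 24.2 CPM in WT and at 10.5, 13.7, 5.23 and 18.2 CPM in URE, with overlap only through WT replicate 3. The log2 fold change was -1.22 (95% interval -2.21 to -0.24, adjusted p = 0.140 by edgeR), and with the replicate block it was -1.22 and called (adjusted p = 0.0231 by edgeR). The order was WT GMPs (27.6 ± 13.8 CPM, SD, n = 4), URE GMPs (11.9 ± 5.46), WT LSKs (3.13 ± 1.39) and URE LSKs (0.240 ± 0.235), and only the first 2 overlapped.

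*Cxcr2* and *Cxcr4* encode receptors that act against each other on the exit of neutrophils from the marrow, and neither was called by genotype. *Cxcr2* was at 2.82, 3.05, 3.83 and 2.78 CPM in WT LSKs and at 0.546, 2.12, 1.52 and 1.34 CPM in URE LSKs. The groups did not overlap, and the log2 fold change was -1.20 (95% interval -2.18 to -0.23, adjusted p = 0.187 by edgeR). It was called at -1.17 when all 16 libraries were fitted together (adjusted p = 0.0419 by edgeR). In WT GMPs *Cxcr2* was at 15.2 to 17.9 CPM, the smallest SD relative to its mean among the 9 genes in that group. In URE GMPs it was at 8.73 to 17.2 CPM, with a log2 fold change of -0.28 (95% interval -0.84 to 0.28). The order of *Cxcr2* was WT GMPs (16.9 ± 1.27 CPM, SD, n = 4), URE GMPs (14.0 ± 4.04), WT LSKs (3.12 ± 0.486) and URE LSKs (1.38 ± 0.650), and only the first 2 overlapped. *Cxcr4* was at 1.95 to 3.99 CPM in WT LSKs and 0.716 to 4.31 CPM in URE LSKs, and at 3.29 to 7.97 CPM in WT GMPs and 1.90 to 7.38 CPM in URE GMPs. Its log2 fold change was -0.26 in LSKs (95% interval -1.56 to 1.04) and -0.25 in GMPs (95% interval -1.39 to 0.89), with a sign that turned when URE LSK replicate 3 or WT GMP replicate 3 was left out. The order of *Cxcr4* was WT GMPs (5.25 ± 2.03 CPM, SD, n = 4), URE GMPs (4.49 ± 2.91), WT LSKs (2.74 ± 0.971) and URE LSKs (2.32 ± 1.74), with overlap at each step. URE replicates 2 and 4 were higher in *Cxcr4* than URE replicates 1 and 3 in both cell types.

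**Figure D3:**
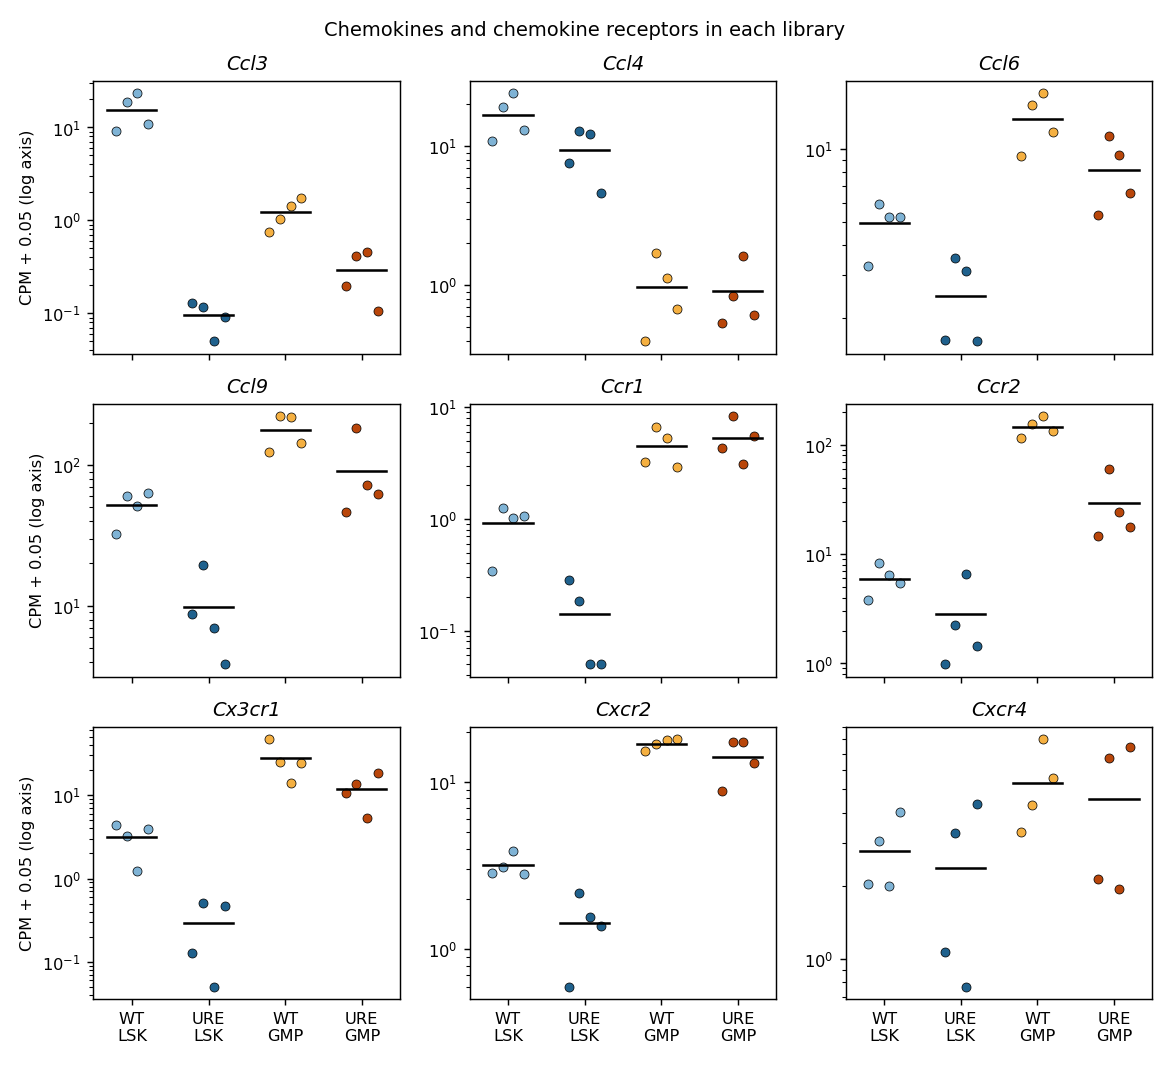
CPM plus 0.05 on a log axis (y) in the 4 groups (x), 1 point per library in the order of replicates 1 to 4, with the mean as a bar. In LSKs the URE points of *Ccl3*, *Ccl9*, *Ccr1*, *Cx3cr1* and *Cxcr2* all lie below the WT points, and in GMPs those of *Ccl3* and *Ccr2* do.

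The second question was how the genes differ between LSKs and GMPs. In WT mice, GMPs had more *Ccl6*, *Ccl9*, *Ccr1*, *Ccr2*, *Cx3cr1* and *Cxcr2* and less *Ccl3* and *Ccl4* than LSKs. All 9 were tested, 6 were called higher against 11.5% of 14767 genes, and 2 lower against 15.8%. *Ccr2* had the largest rise at 4.62 on the log2 scale (SE 0.30, adjusted p = 2.48e-05 by edgeR), followed by *Cx3cr1* (3.12), *Cxcr2* (2.43), *Ccr1* (2.35), *Ccl9* (1.76) and *Ccl6* (1.44). *Ccl4* fell by 4.17 (SE 0.51, adjusted p = 0.000482 by edgeR) and *Ccl3* by 3.71 (SE 0.43, adjusted p = 0.000374 by edgeR). *Cxcr4* had a log2 fold change of 0.93 (95% interval 0.10 to 1.76, adjusted p = 0.0911 by edgeR) and was called at 0.90 with the replicate block (adjusted p = 0.0329 by edgeR). It was also called at 1.01 by DESeq2 (adjusted p = 0.0332) and at 1.17 without WT GMP replicate 1 (adjusted p = 0.0470 by edgeR).

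In URE mice the same 6 genes were called higher in GMPs, against 9.20% of 14395 genes, and *Ccl4* lower, against 12.6%. *Ccr1* rose by 5.67 (SE 0.87, adjusted p = 0.00193 by edgeR) and *Cx3cr1* by 5.54 (SE 0.83, adjusted p = 0.00181 by edgeR), both from URE LSK groups near 0. Their counts were 402 in GMPs against 10 in LSKs and 906 against 26, which are ratios of 53.9 (exact 95% interval 29.0 to 113) and 46.7 (31.7 to 71.9) for counting error only. *Ccl9* rose by 3.19, *Ccr2* by 3.33, *Cxcr2* by 3.30 and *Ccl6* by 1.71, and *Ccl4* fell by 3.47. The rise of *Ccr2* was 4.27 without URE LSK replicate 3 and 2.74 without URE GMP replicate 2. Without URE LSK replicate 2 that of *Ccl9* was 3.81 and that of *Cx3cr1* 6.12, and without URE LSK replicate 1 that of *Ccr1* was 6.58. *Ccl3* had too few counts for the test, with 19 counts in URE GMPs against 5 in URE LSKs. *Cxcr4* had a log2 fold change of 0.90 (95% interval -0.62 to 2.42), and all 4 GMP libraries were above the LSK library of the same number. It was called with the replicate block (adjusted p = 0.0343 by edgeR). The plot of fold changes by cell type shows both genotypes.

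**Figure D4:**
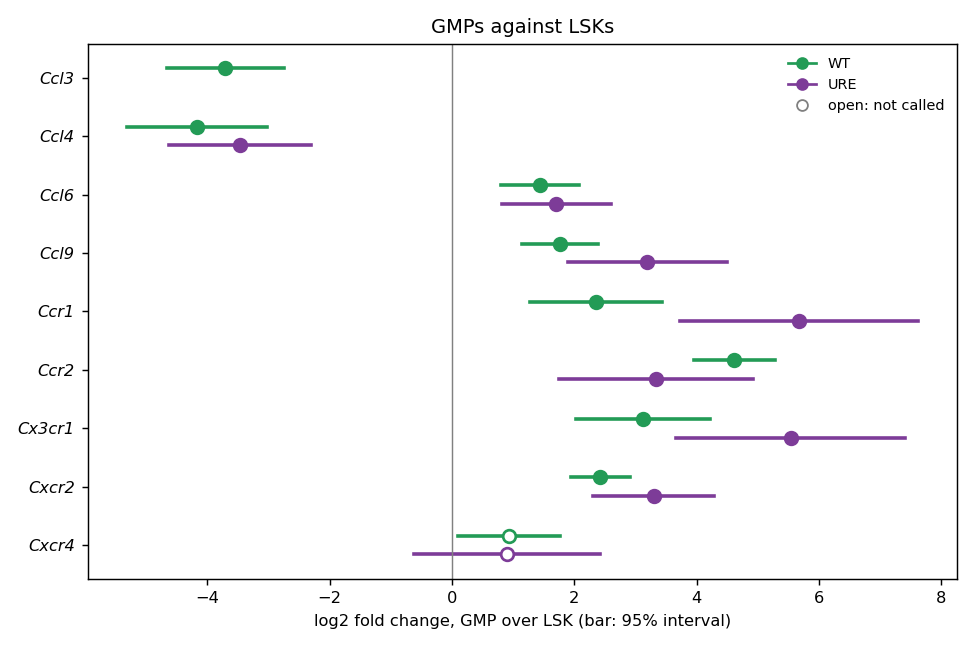
Log2 fold changes of GMPs over LSKs (x axis) for each gene (y axis) in WT (green) and URE (purple) mice, from edgeR. Bars are 95% intervals and open circles were not called. *Ccl3* and *Ccl4* lie left of 0 in WT, the 6 called receptors and ligands right of 0, and *Ccl3* has no URE point because its counts were too low for the test.

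The third question was whether the effect of the genotype differs between the cell types, which an interaction term fitted to the 16 libraries addressed. *Ccl3* was called, its log2 fold change being 5.93 less negative in GMPs than in LSKs (SE 0.86, adjusted p = 0.00385 by edgeR), while 0.866% of 15935 genes were called in that direction. The fall that could be measured in GMPs was limited by the WT level of 1.19 CPM, against 0.145 to 0.169 CPM for 3 counts in URE GMPs, while WT LSKs were at 15.5 CPM. It was called in all 16 fits that left out a library, and within replicates 1 and 4 it was 3.79 (adjusted p = 0.174 by edgeR) and within replicates 2 and 3 it was 7.38 (adjusted p = 0.107 by edgeR), neither of them called. *Ccr1* (3.36, 95% interval 1.34 to 5.37, adjusted p = 0.108 by edgeR) and *Cx3cr1* (2.44, 95% interval 0.53 to 4.35, adjusted p = 0.252 by edgeR) were not called, but were with the replicate block (adjusted p = 0.0368 and 0.0280 by edgeR). *Ccr2* had the opposite sign (-1.24, 95% interval -2.82 to 0.35, adjusted p = 0.599 by edgeR), so that a difference between its changes in GMPs and LSKs did not pass the test. Its interaction was -0.37 without URE LSK replicate 3 and -1.87 without URE GMP replicate 2. *Ccl9* was at 1.45 (95% interval 0.06 to 2.85), or 0.86 without URE GMP replicate 2, *Cxcr2* at 0.90, *Ccl4* at 0.72, *Ccl6* at 0.29 and *Cxcr4* at 0.01, all with intervals that hold differences of over 1 in size. For *Spi1* itself the interaction was 2.64 (SE 0.52, adjusted p = 0.0218 by edgeR).

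Levels were compared between genes as CPM per kb of exon. In WT LSKs *Ccl4* (25.3 ± 8.95), *Ccl3* (20.2 ± 8.62) and *Ccl9* (17.0 ± 4.56) stood above the other 6 genes, which lay between 0.307 and 2.71 CPM per kb, and these 3 overlapped. In URE LSKs *Ccl4* was highest at 14.1 ± 6.01, followed by *Ccl9* at 3.19 ± 2.21, and *Ccl3* was seventh of the 9 at 0.0607 ± 0.0450. In WT GMPs *Ccl9* (58.2 ± 16.8) and *Ccr2* (21.7 ± 4.19) led. In URE GMPs *Ccl9* still led at 29.9 ± 20.4, while *Ccr2*, at 4.29 ± 3.09, lay among *Cxcr2* (4.60 ± 1.33) and *Ccl6* (4.52 ± 1.51), which it did not differ from beyond the spread. All errors are SD over 4 mice. Per kb of the longest transcript instead, *Ccl6* in WT LSKs was at 3.38, still below *Ccl4*, *Ccl3* and *Ccl9*. By that length *Cxcr2* in URE GMPs (4.60) came after *Ccl6* (5.63) and *Ccr2* (5.06).

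The other genes of the chemokine system were counted in the same way. Of 34 other chemokines, 10 were tested in LSKs and 8 in GMPs, and edgeR called 0 in either direction in both. At an unadjusted p under 0.05 there were 1 lower and 0 higher in LSKs (8.72% and 6.63% of all genes) and 2 lower and 0 higher in GMPs (9.66% and 10.6% of all genes). DESeq2 called 4 of the 34 lower in LSKs (4.67% of all genes) and 0 in GMPs (4.77%). Of the 10 tested by edgeR in LSKs, 7 had a negative and 3 a positive log2 fold change. *Cxcl10* was at 2.22 to 4.58 CPM in WT LSKs and 0 to 0.994 CPM in URE LSKs (-2.81, adjusted p = 0.106 by edgeR). *Cxcl12*, the ligand of CXCR4, was at 1.87 ± 1.77 CPM (SD, n = 4) in WT LSKs and 3.79 ± 1.49 in URE LSKs, and *Cx3cl1*, the ligand of CX3CR1, at 6.48 ± 6.07 and 3.81 ± 2.41. Of 19 other receptors, 10 were tested in LSKs and 1 fell (3.76% of all genes were called lower), *Ccr7*, a receptor for homing to lymph nodes (log2 fold change -2.04, adjusted p = 0.0143 by edgeR). At an unadjusted p under 0.05 edgeR gave 2 lower and 2 higher in LSKs, beside 8.72% and 6.63% of all genes, the latter being *Ccr9* (2.05, adjusted p = 0.218) and *Cxcr5* (2.50, adjusted p = 0.130), and DESeq2 called 1 lower and 2 higher, beside 4.67% and 3.32%. *Ccr9*, a receptor for homing to the gut and thymus, was at 11.2 to 61.7 CPM in URE LSKs and 0.927 to 15.3 CPM in WT LSKs. In GMPs 6 were tested, and 2 were called higher and 1 lower, beside 4.67% and 3.63% of all genes, while DESeq2 called 3 higher and 2 lower, beside 1112 and 883 of 18519 genes. *Ccr7* fell by 2.63 (adjusted p = 0.0413 by edgeR), while *Cxcr1*, a relative of *Cxcr2* (2.33, adjusted p = 0.0269 by edgeR), and *Ccrl2*, an atypical receptor (0.89, adjusted p = 0.0389 by edgeR), rose. *Cxcr1* was low throughout, at 1.06 ± 0.438 CPM in URE GMPs and 0.206 ± 0.112 CPM in WT GMPs.

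All 25 genes listed for signalling downstream of chemokine receptors were tested in both cell types. In LSKs 5 were called lower and 1 higher, beside 3.76% and 2.38% of all genes, with a median log2 fold change of -0.23. In GMPs 4 were called lower and 1 higher, beside 3.63% and 4.67% of all genes, with a median of -0.29. *Pik3r5*, the regulatory subunit of the PI3-kinase that G proteins activate, fell in both, with log2 fold changes of -2.97 in LSKs (adjusted p = 0.0222 by edgeR) and -4.81 in GMPs (adjusted p = 0.00936 by edgeR). *Gng2*, a G protein gamma subunit, fell likewise, at -1.53 (adjusted p = 0.0345 by edgeR) and -2.49 (adjusted p = 0.00191 by edgeR). *Rgs19*, which shortens G protein signals, fell at -0.85 (adjusted p = 0.0317 by edgeR) and -1.03 (adjusted p = 0.00986 by edgeR). *Rgs2* fell by 2.32 in LSKs (adjusted p = 0.00499 by edgeR) and *Rgs1*, of the same family, rose by 1.80 there (adjusted p = 0.0209 by edgeR). *Gnai3*, an inhibitory G protein subunit, rose by 0.82 in GMPs (adjusted p = 0.0232 by edgeR). The interaction term called 0 of the 34 chemokines, 0 of the 19 receptors and 0 of the 25 signalling genes by edgeR. At an unadjusted p under 0.05 these lists held 2, 0 and 3 genes in either direction, beside 11.6% of all genes, and DESeq2 called 0, 0 and 1, beside 4.08%.

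Markers of other cell types were counted by genotype too, beside 3.76% of all genes called lower and 2.38% higher in LSKs and 3.63% and 4.67% in GMPs. The summed level of 10 monocyte and macrophage markers was 27.4 to 46.3 CPM in URE LSKs against 97.8 to 149 CPM in WT LSKs, and 410 to 1845 CPM in URE GMPs against 1569 to 2148 CPM in WT GMPs. *Ly6c2*, a surface marker of monocytes, held much of the URE GMP sum at 631 ± 408 CPM (SD, n = 4), against 306 ± 145 CPM in WT GMPs, and was not called there (1.01, adjusted p = 0.287 by edgeR). In LSKs 4 of 9 tested fell and 0 rose, among them *Irf8* (-3.19, adjusted p = 0.000947 by edgeR), and in GMPs 6 of 10 fell and 0 rose, among them *Csf1r* (-3.44, adjusted p = 0.0101 by edgeR). The 10 neutrophil markers summed to 180 to 361 CPM in URE LSKs against 36.6 to 179 CPM in WT LSKs, and to 355 to 1076 CPM in URE GMPs against 133 to 212 CPM in WT GMPs. Of 7 tested in LSKs, 1 was called, *Ngp* (2.37, adjusted p = 0.00838 by edgeR), and of 8 tested in GMPs *Ngp* and *Retnlg* rose and *Mmp8* fell. Dendritic cell markers fell in 1 of 5 tested in LSKs and 3 of 5 in GMPs by edgeR. All 5 had a negative fold change in both, and DESeq2 called 3 lower in LSKs and 5 in GMPs, beside 4.67% and 4.77% of all genes. All 3 eosinophil markers fell in GMPs, where their sum was 63.5 to 288 CPM in URE against 558 to 1202 CPM in WT. Basophil and mast cell markers gave 2 of 5 higher and 0 lower in LSKs, and 1 higher and 2 lower of 6 in GMPs. B cell markers gave, by edgeR, 1 lower of 4 in LSKs and of 3 in GMPs, and the megakaryocyte list 1 higher of 4 in LSKs and 0 of 4 in GMPs. The T and NK cell list summed to 1351 to 2228 CPM in URE GMPs against 563 to 976 CPM in WT GMPs, without overlap, nearly all of it from *Nkg7*, a gene of cytotoxic granules and the 1 member tested (1.07, adjusted p = 0.0169 by edgeR). In LSKs that sum was 212 to 355 CPM in URE and 117 to 292 CPM in WT. EdgeR called 0 of 6 erythroid markers in either cell type, with 1 higher and 1 lower in LSKs and 0 in GMPs both at an unadjusted p under 0.05 and by DESeq2. In these bulk samples fewer cells of a type and less RNA per cell cannot be told apart. The part of these shifts in the values of *Ccr2*, *Cx3cr1*, *Ccl9* and the other genes was not tested.

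The genes whose pattern over the 16 libraries was most like that of each chemokine or receptor were found by the root-mean-square (RMS) difference of centred log2 CPM among 15935 genes, a description with no test. For *Ccl3* they were *Kynu* (RMS 0.782), *Gm29946* (0.887) and *Oas2* (0.905), all near 0 in URE LSKs and above 6 CPM in WT LSKs. For *Ccl4* they were *Gbp6* (0.477), *Cd200* (0.608) and *Plxna4os1* (0.616). *Ccl6* was nearest to *Etfb* (0.346), *Gpx1* (0.381) and *Sec11c* (0.399), and *Ccl9* to *Ncf4* (0.551), *Lgals1* (0.564) and *Tyrobp* (0.608). *Ccr1* was nearest to *Prss57* (0.572), *Prtn3* (0.678) and *Cebpa* (0.724), which are expressed in GMPs of both genotypes and lower in URE LSKs than in WT LSKs. *Ccr2* was nearest to *Clec7a* (0.644), *Rnase12* (0.821) and *Gm807* (0.826), and *Cx3cr1* to *Sowahc* (0.694), *Fcgr2b* (0.876) and *Nxpe1-ps* (0.895). *Cxcr2* was nearest to *Pglyrp1* (0.540), *Tent5a* (0.548) and *Fcer1g* (0.559), and *Cxcr4* to *Cry1* (0.446), *Rps12* (0.464) and *Rps12l1* (0.472). The distance was smallest for *Ccl6* and *Cxcr4*, whose levels changed least over the groups and to which a low distance comes most easily.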

How the data were processed

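RNA-seq libraries of LSKs and GMPs were unstranded low-input libraries without molecular identifiers. Per the study's methods and the labels, the authors quantified reads with salmon, aggregated them to genes with tximport and deposited estimated counts, whole numbers that are not normalized; the annotation release is not given in the sources used here. The submitters' processing notes name GRCm38. Gene IDs were matched to GENCODE M21 (54094 of 54347). The 9 genes, the lists and the tests were chosen with earlier results of these data known. Per comparison, counts were filtered with filterByExpr, scaled by TMM and tested with the quasi-likelihood test of edgeR 4.0.16 (limma 3.58.1, R 4.3.3) on the libraries compared, and calls needed an adjusted p under 0.05 and, except for the interaction, a fold change above 1.5. The study's methods use DESeq2, which was run as an alternative (1.42.0). Standard errors and 95% intervals were derived from the fold change and its F statistic. For single genes, all 70 arrangements of 4 against 4 libraries were compared on log2 CPM (prior count 2, two-sided exact permutation), and levels near 0 are limited by a floor of 3 counts (0.0961 to 0.169 CPM). Intervals on counts are exact binomial ones and cover counting error only. The fitting procedure was also run on simulated data with independent libraries, and no result here rests on that run.

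Same-numbered libraries deviated together in every pair (correlations of deviations 0.282 to 0.767), so that the numbers were taken to pair the libraries and a replicate block was fitted as an alternative. The pairing rests on these correlations, since no source used here says that a number marks a mouse or a day. Between LSKs and GMPs of a genotype, the same number gave the highest correlation for every replicate. *Ddx3y* was also present or absent alike in both cell types of each number and genotype. The main fits of cell type and of the interaction treated these libraries as independent. In both genotype comparisons a library of replicate 4 correlated better with another number than the pair itself did (0.435 against 0.304 in LSKs and 0.476 against 0.282 in GMPs). The labels do not say whether LSKs and GMPs of a number came from the same mouse. Libraries of a group differed by more than sampling noise (lowest chi-square per degree of freedom 29.6). Named genes were the 9 members, *Spi1* and the genes of the chemokine lists called in a genotype comparison. Marker genes whose level moves with a result were named too, as were the 3 genes of nearest pattern for each member. *Ppbp*, *Vwf*, *F13a1*, *Ly6c2*, *Ccr9*, *Cxcr5*, *Cxcl10*, *Kit* and *Ddx3y* were named after their values were seen. A called gene of the signalling list is not reported here. Plots were drawn with matplotlib 3.10.9.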

Additional observations from a re-analysis of the deposited data

Results flagged for a closer look

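The difference between cell types in the genotype effect on *Ccl3* stood out, with an interaction of 5.93 on the log2 scale, as did that of the targeted gene *Spi1*, at 2.64. In both the fitted log2 fold change was more negative in LSKs than in GMPs. For *Ccl3* the fall that could be measured in GMPs was limited by the low WT level there (1.19 CPM, against 15.5 CPM in WT LSKs), and the URE LSK group held 5 counts in all, so that the interaction does not separate a weaker effect from a lower starting level. The *Spi1* interaction missed the threshold without WT LSK replicate 4 (2.47, adjusted p = 0.0503 by edgeR) and within replicates 2 and 3 (2.30, adjusted p = 0.681 by edgeR). The fall of *Spi1* in GMPs also missed it within replicates 2 and 3 (-2.39, adjusted p = 0.0713 by edgeR), with 2 libraries a group. Among 40 groups of 4 libraries checked for a library far from the other 3 (the 9 genes and *Spi1* in each group), 0 held one by Dixon's criterion.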

How the results depend on the processing

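The falls of *Ccl3* and *Ccl9* in LSKs and the 6 rises from LSKs to GMPs in URE mice kept their direction under each alternative. In LSKs the number of genes of the set called lower was 3, beside 570 of all 15154 genes tested. It was 1 at an adjusted p under 0.01 with a fold above 2, for which no count over all genes is given. With all 16 libraries fitted together it was 5, beside 651 of 15935 genes. When 1 library was left out it was 2 to 4, beside 359 to 608 of all genes tested. In GMPs the number was 2, beside 502 of 13829 genes. It was 1 under the stricter thresholds, for which no count over all genes is given. With no filter on low counts it was 1, beside 532 of 27699 genes. With a minimum of 1 CPM in 4 libraries it was 1, beside 430 of 12273. With the level of Y-linked genes as a covariate (added after seeing the data) it was 1, beside 295 of 13829. With the replicate block it was 5, beside 943 of 13829. Within replicates 1 and 4 it was 3 (*Ccl9* in addition), beside 561 of 14015. Within replicates 2 and 3 it was 0, beside 52 of 14222. When 1 library was left out it was 1 to 2, beside 320 to 538 of all genes tested. With the Y-linked covariate *Ccl3* in GMPs (-2.63, adjusted p = 0.0653 by edgeR) and *Cx3cr1* in LSKs (-4.26, 0.0721) missed the threshold. Their log2 fold changes were larger in size than without the covariate (-2.26 and -3.69). Within replicates 2 and 3, *Ccl3* (-1.62, adjusted p = 0.451 by edgeR) and *Ccr2* (-2.05, 0.105) in GMPs and *Cx3cr1* in LSKs (-3.16, 0.368) missed it, as did the rise of *Ccl6* in URE GMPs over LSKs (1.66, 0.127), with 2 libraries a group. Within replicates 1 and 4 the rise of *Ccr1* in WT GMPs missed it (2.24, adjusted p = 0.0563 by edgeR). The number of higher interactions in the set was 1, beside 138 of all 15935 genes tested. It was 2 with DESeq2, which added *Ccr1* (3.38, adjusted p = 0.00459), beside 416 of 16525 genes. With the replicate block it was 3, beside 632 of 15935 genes. Within replicates 1 and 4 it was 0, beside 137 of 15999 genes, and within replicates 2 and 3 it was 0, beside 1 of 16307. The replicate block changed no call other than those given beside the results. The cause of these shifts was not tested, and the fits within replicates 1 and 4 also had 2 libraries a group.

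Signs turned only for uncalled values. In GMPs *Ccl4* was 0.10 and *Cxcr4* 0.084 within replicates 1 and 4, and *Ccr1* -0.11 within replicates 2 and 3; *Spi1* between WT cell types was -0.0027 within replicates 1 and 4. The *Cxcr4* interaction was -0.026 with DESeq2, -0.028 with RLE size factors, -0.037 with no filter, -0.088 with the replicate block and -0.23 within replicates 2 and 3. Leaving out 1 library gave -0.73 to 0.041 for *Cxcr4* in LSKs, and in GMPs -0.64 to 0.31 for *Ccl4*, -0.11 to 0.44 for *Ccr1* and -0.60 to 0.034 for *Cxcr4*. It gave -0.36 to 0.49 for the *Cxcr4* interaction and -0.034 to 0.39 for *Spi1* between WT cell types. Depth limits *Ccl3*, *Cx3cr1* and *Ccr1* in URE LSKs, which hold 5, 26 and 10 counts in all.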
